A study of Mus musculus with 3 samples.

Results

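The cells described here are 323 liver type 1 innate lymphoid cells (ILC1) with little interferon gamma transcript, out of 3230 cell barcodes that passed the quality filter in droplet single-cell RNA sequencing of mouse liver. They were chosen by counts of unique molecular identifiers (UMIs, 1 per captured RNA molecule) in each barcode. A member had at least 2 UMIs of Ncr1 and Klrb1c summed, at most 1 of Cd3d and Cd3e, and at least 4 of Cxcr6, Itga1, Gzmc and Ltb. It also had at most 1 of Eomes, Klra8, Klra4 and S1pr5, and at most 5 of Ifng. These 13 genes therefore describe the members and test nothing. They were left out of the calls and list sums below, and where their values appear they are a description.

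All mice carried the Ai14 (LSL-Tomato) reporter, in which Cre recombination switches on a red fluorescent protein. The mice received PBS, 20a-LNP or 20mix-LNP by systemic injection, and non-parenchymal liver cells were taken 3 h later. Both LNPs are lipid nanoparticles, which carried 0.3 mg/kg of Cre mRNA. The tissue was digested with enzymes, and about 2000 flow-sorted cells were loaded per treatment. Each treatment had 1 library, and the 3 libraries were deposited as 1 matrix in which every barcode ends in the suffix 1, 2 or 3. The labels and file headers used here do not tie a suffix to a treatment, so the treatments were not compared and the libraries are given by suffix. The sources used here do not give the number, age or sex of the mice or the populations sorted, and the reporter transcript was not analysed here.

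ILC1 are lymphocytes without rearranged antigen receptors that live in tissues, and the liver is one of their main sites. They share the receptors NKp46 (Ncr1) and NK1.1 (Klrb1c) and the transcription factor T-bet with circulating natural killer (NK) cells, but depend little on the factor Eomes and carry the residency molecules CD49a (Itga1) and CXCR6. They are known for fast secretion of interferon gamma, for granzymes and for the death ligand TRAIL.

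Members held 2159479 UMIs, and the median barcode had 6550 UMIs, 2270 detected genes and 3.87% mitochondrial UMIs. They made up 10.0% of kept barcodes (exact binomial 95% interval 8.99 to 11.1%). By library they numbered 64 of 761 (8.41%, 6.54 to 10.6%) in suffix 1, 138 of 1119 (12.3%, 10.5 to 14.4%) in suffix 2 and 121 of 1350 (8.96%, 7.49 to 10.6%) in suffix 3. Of 510 barcodes that passed the Ncr1, Klrb1c and CD3 limits alone, members made up 63.3% (59.0 to 67.5%). Beside them stood 47 conventional NK barcodes (at most 3 UMIs of the ILC1 genes, at least 2 of the NK genes, at most 5 of Ifng), which split as 9, 31 and 7 over suffixes 1 to 3. Another 40 barcodes met every ILC1 limit with 6 or more Ifng UMIs (15, 10 and 15 by suffix). The remaining 19 had both gene sets and 72 had neither, and the latter had a median of only 2173 UMIs. The comparison with T cells used 108 barcodes with at least 2 CD3 UMIs and no Ncr1 or Klrb1c UMI. Only 3 barcode sequences occurred under more than 1 suffix, and 2 members carried such a sequence. Scrublet called 23 of 3230 barcodes doublets, 3 of them members, which were kept.

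Levels are counts per 1000000 UMIs of a group's sum (CPM). Intervals after a ratio, share or level are exact 95% intervals that cover counting error only, not animals, libraries or cells. No p-value is given, since barcodes of a library are not replicates and the libraries could not be assigned to treatments. A gene was called different at a ratio of 2 or more, with 50 CPM or more in the higher group. The ratio had to hold in the pooled sums and in each library with 20 or more barcodes in both groups, which left only suffix 2 for conventional NK and suffixes 2 and 3 for T cells. For high Ifng ILC1 no library qualified and the pooled sums alone decided.

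The gate genes are described first, and since they chose the members they do not test the labelled identity. Ncr1 was present in 323 of 323 members, Ltb (lymphotoxin beta) in 313, Itga1 in 252, Cxcr6 in 241, Gzmc in 160 and Klrb1c in 150. Thus 8 members had no UMI of Cxcr6, Itga1 or Gzmc and passed on Ltb alone, while 281 had 3 or more UMIs of those 3 genes. Most members lay well inside the limits, with a median of 12 UMIs of the ILC1 genes, and 288 had no UMI of the NK genes. At the edges, 10 members had exactly 4 UMIs of the ILC1 genes against 28 otherwise passing barcodes with 3. Another 45 had 2 UMIs of Ncr1 and Klrb1c, against 51 with 1. For the NK genes, 35 members had 1 UMI and 8 outside had 2. For Ifng, 11 members had 5 UMIs and 7 outside had 6, while 194 members had none.

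Markers of other cell types were present at low to moderate sums in members. ILC2 and ILC3 markers summed to 99.6 CPM, with 9 of 14 at 0 UMIs, among them Il17rb, and most of the sum was Gata3 at 79.2 CPM, a factor that ILC1 also express. Kupffer cell and monocyte markers summed to 37.0 CPM (14.8, 68.2 and 14.1 by suffix), B cell markers to 203 CPM with 3 of 6 at 0, and hepatocyte transcripts to 101 CPM. Nearly all of the B cell sum was Ighm at 192 CPM, which was called higher than in conventional NK (94.0 CPM). Plasmacytoid dendritic cell markers summed to 179 CPM (307, 186 and 93.7 by suffix) and endothelial markers to 140 CPM (69.9, 66.0 and 270 by suffix), against 56.4 CPM for each list in high Ifng ILC1. The plasmacytoid list includes Bst2, which is also on the interferon response list used below. With members thinned to 2000 UMIs, Bst2 averaged 0.173 UMIs, against 0.0189 for Cox6a2 and 0.0157 for Siglech. By a rule set after the data were seen, at least 10 UMIs of another cell type's list in a barcode, 10 members were mixed.

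The CD3 and T cell receptor genes were not uniform in these cells. Cd3g, which encodes the gamma chain of the CD3 complex, was found in 211 of 323 members (65.3%, 59.9 to 70.5%) at 1107 CPM, with 881, 1227 and 1104 CPM in suffixes 1, 2 and 3. All 47 conventional NK barcodes had 0 Cd3g UMIs, which allows a share of barcodes with a UMI of up to 6.38% (3 counts of 47) at a median depth of 7369 UMIs and does not exclude expression below it. T cells had Cd3g in 86.1% of barcodes at 1219 CPM. Its level in members was therefore close to that of T cells (ratio 0.908, 0.836 to 0.988) and at least 145-fold above conventional NK, taking a floor of 3 UMIs over that group. Among the 2612 other kept barcodes 6.55% had a Cd3g UMI (75.3 CPM, median depth 5336.5 UMIs). That set is mixed and includes 29 barcodes that met the ILC1 gate apart from its CD3 limit and held 375 of its 1274 Cd3g UMIs.

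The gate limits Cd3d and Cd3e, so their low levels in members (8.80 and 0.926 CPM) are given by the rule. Without the CD3 limit the gate took 352 barcodes, of which 302 had no Cd3d or Cd3e UMI, 21 had 1 and 29 had 2 or more. In those 29 barcodes Cd3d stood at 800.0 CPM, Cd3e at 762 CPM and the delta receptor constant gene Trdc at 969 CPM. Members had Trdc at only 3.70 CPM and the alpha constant gene Trac at 2.78 CPM, against 71.2 and 17.8 CPM in conventional NK and 524 and 361 CPM in T cells. The beta constant genes were abundant in members, with Trbc1 in 92.6% of barcodes at 739 CPM and Trbc2 in 70.6% at 599 CPM. Trbc1 stood at 407 CPM in conventional NK (ratio 1.82, 1.54 to 2.15) and Trbc2 at 137 CPM (ratio 4.36, 3.32 to 5.84). Because the constant genes are near-identical copies, reads could be split between Trbc1 and Trbc2, so their single values are uncertain. The low Cd3e level is set by the gate. The 29 barcodes that the CD3 limit removed held 178 Trdc UMIs against 8 in all members. Conventional NK barcodes passed the same CD3 limit and had Trdc at 71.2 CPM. The part of the limit in the low Trdc level of members was not tested.

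**Figure D1:**
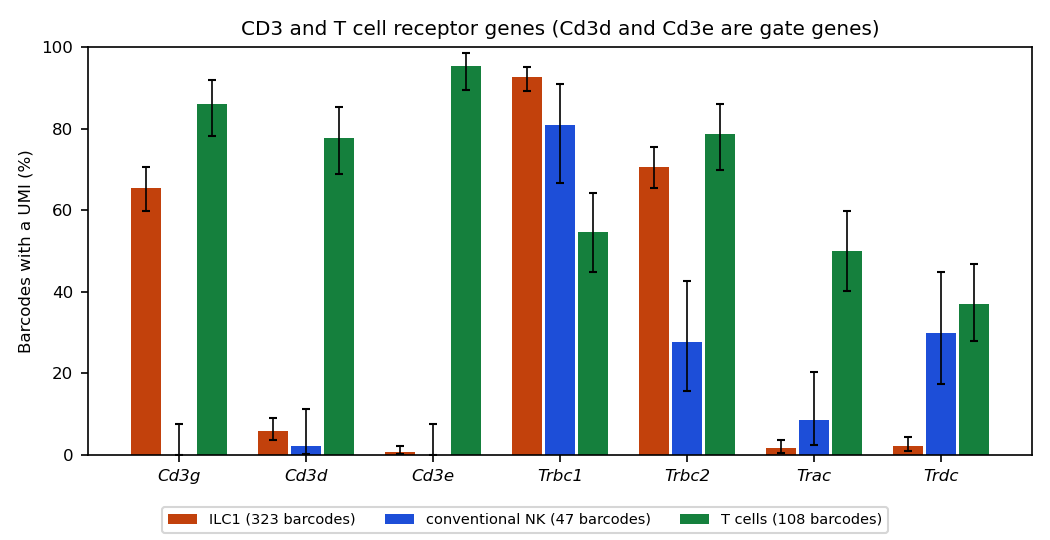
Share of barcodes with at least 1 UMI of 7 CD3 and T cell receptor genes (y axis, percent; error bars are exact 95% binomial intervals) in ILC1, conventional NK cells and T cells. Cd3g reaches 65.3% of ILC1 and 0 of 47 conventional NK barcodes, while Trac and Trdc are at 1.55% and 2.17% in ILC1.

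Cd3g lies on chromosome 9 at 44969572 to 44980431 on the minus strand, and Cd3d at 44981786 to 44987339 on the plus strand (GENCODE M21, GRCm38). Their starts face away from each other 1355 bases apart. The 250 bases before each start are shown because 1 of these neighbours was abundant and the other was limited by the gate. The sequences are from RefSeq (GRCm38.p6), at chr9:44980432-44980681 (minus strand) and chr9:44981536-44981785 (plus strand), and capitals mark the E-box letters CACCTG, a motif of the E protein and Snail families, found on either strand.
Cd3g: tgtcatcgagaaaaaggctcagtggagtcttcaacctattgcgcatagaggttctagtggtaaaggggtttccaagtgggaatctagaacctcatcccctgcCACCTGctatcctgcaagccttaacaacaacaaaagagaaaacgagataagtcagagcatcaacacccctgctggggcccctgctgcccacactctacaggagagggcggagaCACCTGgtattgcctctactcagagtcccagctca
Cd3d: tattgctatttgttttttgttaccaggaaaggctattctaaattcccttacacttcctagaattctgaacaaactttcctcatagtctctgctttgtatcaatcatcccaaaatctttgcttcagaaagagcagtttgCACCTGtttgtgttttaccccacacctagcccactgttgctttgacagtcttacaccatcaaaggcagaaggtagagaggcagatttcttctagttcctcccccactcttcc
The Cd3g stretch holds 2 such matches and the Cd3d stretch 1, while 17.2% of 32851 promoter stretches of this length hold at least 1. Neither stretch holds the RUNX letters TGTGGT or the T-box letters AGGTGTGA on either strand (14.0% and 1.12% of all stretches). The table matched 144 of the 200 genes called higher in ILC1 than in conventional NK, and their 206 promoters held CACCTG in 19.4%, TGTGGT in 15.5% and AGGTGTGA in 0.485%. For 126 of the 173 genes called lower, the shares over 175 promoters were 15.4%, 12.0% and 0%.

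Against conventional NK cells, the members had more of the ILC1 genes outside the gate and less of most NK identity genes tested. Of 3463 genes, 200 (5.78%) were called higher in ILC1 and 173 (5.0%) lower, and the median ratio over all of them was 0.971. In the list of ILC1 identity genes outside the gate, 13 of 16 tested members were higher and 0 lower, with a median ratio of 7.30. The list summed to 7162 CPM in members (7654, 7373 and 6618 by suffix) and to 2239 CPM in conventional NK (2740, 2167 and 1830). The sum was thus higher in members in each library. In the list of NK identity genes outside the gate, 13 of 16 were lower and 0 higher, with a median ratio of 0.112. The groups were chosen by related genes, so neither direction is independent of the rule.

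Among the identity genes, Tnfsf10 encodes TRAIL, which kills cells through death receptors. It stood at 222, 223 and 256 CPM in the members of suffixes 1, 2 and 3 and at 12.5, 15.3 and 19.1 CPM in conventional NK, a ratio of 15.4 (7.02 to 42.2). Il7r, the interleukin 7 receptor, stood at 102, 103 and 103 CPM against 12.5, 3.84 and 0 CPM (ratio 20.2, 5.53 to 168, from only 2 UMIs in conventional NK). Cd200r1, an inhibitory receptor, had 127, 121 and 132 CPM against a single UMI (ratio 49.7, 8.85 to 1972). These 3 genes were almost level across the libraries in members. Cd7, a receptor of immature and tissue lymphocytes, was far more abundant at 1768 against 290 CPM (ratio 6.10, 5.06 to 7.42). Cd160, a receptor for HVEM, was 3.94-fold higher (2.92 to 5.43) at 450 CPM.

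Further identity genes were absent or nearly so in conventional NK. Inpp4b, a phosphatidylinositol phosphatase, had 168 CPM against 0 UMIs (at least 22.0-fold), and Socs2, an inhibitor of cytokine signalling, had 64.8 CPM against 0 UMIs (at least 8.50-fold). Tmem176a and Tmem176b, neighbouring membrane protein genes, had 69.0 and 89.8 CPM against 2.54 and 7.62 CPM. Ikzf2 (the factor Helios) had 116 against 20.3 CPM (ratio 5.72, 2.86 to 13.4). Its conventional NK value rested on suffix 1, where it was 87.2 CPM. Cd69, Ctla2a and Klrb1f were tested and not called, with ratios of 0.920, 0.987 and 1.13. Zfp683, which encodes the residency factor Hobit, had 18.1 CPM against 0 UMIs and fell under the 50 CPM minimum, as did Rora at 27.8 CPM.

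**Figure D2:**
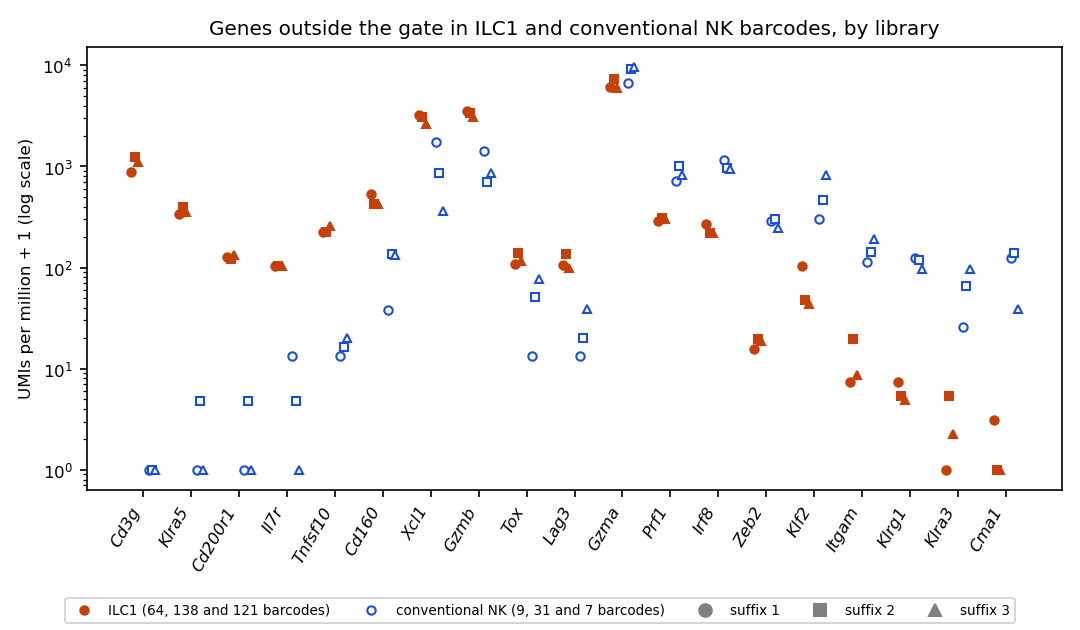
Level of 19 genes outside the gate (y axis, CPM plus 1, log scale) in ILC1 (filled) and conventional NK cells (open), with 1 symbol per library (circle, suffix 1; square, suffix 2; triangle, suffix 3). Cd3g, Klra5, Cd200r1, Il7r and Tnfsf10 are higher in ILC1 in each library, Gzma overlaps, and the genes from Prf1 on are lower in ILC1.

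After Cd3g, the largest ratios outside the identity list belonged to Klra5, Asb2 and Cited4. Klra5, which encodes a lectin-like receptor of the Ly49 family, had 335, 395 and 351 CPM in members and 1 UMI in conventional NK (ratio 144, 25.8 to 5693). It lies at chromosome 6, 129898996 to 129917650, in a cluster of near-identical genes, so its count is uncertain. Asb2, part of a ubiquitin ligase, had 181 CPM against 2 UMIs (ratio 35.5, 9.77 to 294) and Cited4, a transcriptional coactivator, 174 CPM against 2 UMIs (ratio 34.3, 9.42 to 284). Ccdc136, Gdpd5 and 2900026A02Rik completed the 10 highest ratios, at 67.6, 57.4 and 111 CPM against 1 or 2 UMIs each.

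On the NK side, the gap was widest for Cma1, a serine protease of mast cells and NK cells, with 1 UMI in all members and 122 CPM in conventional NK (263-fold lower, 45.1 to 10619). Klrg1, a receptor of mature NK cells, had 4.63 against 117 CPM (25.2-fold lower, 12.6 to 56.1). Sh2d1a, the adaptor SAP, had 5.56 against 150 CPM. Zeb2, a factor of NK maturation, had 17.6 against 290 CPM (16.5-fold lower, 11.3 to 24.4) and Irf8 231 against 1009 CPM (4.37-fold lower, 3.82 to 4.99). The integrin genes Itgam and Itga2 were 11.8-fold and 7.25-fold lower. The other Ly49 genes called were lower, with Klra7 at 35.7 against 724 CPM and Klra3 at 2.32 against 61.0 CPM. Phactr3, As3mt and Khdc1a, each at or under 1.39 CPM in members, also ranked among the 10 lowest ratios. Of the NK identity genes tested, Spn, Gzma and the Ly49 gene Klra1 were not called. Spn stood at 182 against 249 CPM and Gzma at 6602 against 8697 CPM. Klra1 had a UMI in 12.9% of members thinned to 2000 UMIs.

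Cytotoxic genes summed to similar levels in members and NK cells, with Gzma the most abundant in both, and single genes differed in both directions. The list summed to 14982 CPM in members and 15821 CPM in conventional NK (ratio 0.947, 0.922 to 0.973, which turns to 1.01 with TMM scaling). On this list 2 of 12 tested genes were higher and 3 lower, beside 5.78% and 5.0% of all tested genes. Gzmb, the apoptosis-inducing granzyme B, had 3537, 3372 and 3120 CPM against 1432, 694 and 858 CPM (ratio 3.83, 3.43 to 4.28). Prf1, which encodes the pore-forming perforin, had 288, 305 and 304 CPM against 710, 1009 and 820 CPM (3.06-fold lower, 2.69 to 3.49). Both orders held in each library, though suffixes 1 and 3 had only 9 and 7 conventional NK barcodes. Among single members, 23 had no Gzmb UMI and 78 had no Prf1 UMI. The granzyme B inhibitor Serpinb9 had 168 against 366 CPM and Serpinb6b 280 against 704 CPM, though in suffix 3 Serpinb9 was higher in members (243 against 133 CPM). Nkg7, a granule membrane protein, and Srgn, the granule proteoglycan serglycin, had ratios of 0.671 and 1.48 and were not called. Fasl, another death ligand, was 125 CPM in both.

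NK receptors and adaptors summed to 10292 against 9276 CPM (ratio 1.11, 1.07 to 1.15). Here 4 of 23 tested were higher and 6 lower, beside 5.78% and 5.0% of all tested genes. The higher genes were Klra5, Cd160, Cd226 (the activating receptor DNAM-1, 199 against 40.7 CPM) and Cd96 (which binds the same ligand, 107 against 35.6 CPM). The lower ones were Klrg1, Klra3, Klra7, Klra9, Crtam (17.1 against 86.4 CPM) and Cd247, the zeta signalling chain (35.7 against 96.6 CPM). The adaptors Tyrobp and Fcer1g, at 2188 and 2164 CPM, had ratios of 0.989 and 1.57. Klrd1 (CD94) and Klrk1 (NKG2D) had ratios of 1.17 and 0.957. Of the inhibitory checkpoint receptors, 3 of 3 tested were higher, namely Cd200r1, Lag3 (116 against 20.3 CPM, ratio 5.69, 2.85 to 13.3) and Lilr4b (88.9 against 12.7 CPM). That list's sum was 401 against 55.9 CPM, with ratios of 7.57, 7.27 and 6.89 in suffixes 1, 2 and 3. Pdcd1 (PD-1) had 22.2 CPM against 0 UMIs and Tigit 3.24 against 5.08 CPM, both under the minimum.

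Among 22 tested transcription factors 2 were higher and 5 lower, beside 5.78% and 5.0% of all tested genes. Tox, a factor needed for innate lymphoid development, had 124 against 45.7 CPM (ratio 2.71, 1.68 to 4.65) and joined Ikzf2. Lower were Zeb2, Irf8, Klf2 (57.9 against 478 CPM), Prdm1 (the factor Blimp-1, 22.7 against 89.0 CPM) and Tcf7 (10.2 against 53.4 CPM). Tbx21, which encodes T-bet and is shared by both lineages, had 102, 114 and 109 CPM against 99.6, 127 and 172 CPM (ratio 0.864, 0.634 to 1.2). Id2, required by all innate lymphoid cells, was 1397 against 851 CPM, and Ets1 and Runx3 had ratios of 1.07 and 1.42, none of them called.

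For secreted signals, Xcl1, a chemokine that attracts cross-presenting dendritic cells, had 3217, 3102 and 2657 CPM in members and 1756, 855 and 362 CPM in conventional NK (ratio 3.05, 2.75 to 3.39). Tnfsf8, the CD30 ligand, had 98.2 against 5.08 CPM (ratio 19.3, 5.28 to 161). Ccl3 had 231 against 635 CPM (2.76-fold lower, 2.36 to 3.21), with the opposite order in suffix 3 (225 against 133 CPM). Ccl5, the most abundant chemokine in members, was 12428 against 16436 CPM and was not called, and the same held for Ccl4 at 927 against 1296 CPM. Of 7 tested genes on this list 2 were higher and 1 lower, beside 5.78% and 5.0% of all tested genes.

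Of 16 tested cytokine receptors, 4 were higher and 3 lower, beside 5.78% and 5.0% of all tested genes. The higher ones were Il7r, Il21r (63.4 against 17.8 CPM), Il27ra (112 against 33.0 CPM) and Tgfbr1, a receptor of the residency-promoting cytokine TGF-beta (69.5 against 20.3 CPM). Both chains of the interleukin 18 receptor were lower, Il18rap at 74.1 against 300.0 CPM and Il18r1 at 19.9 against 102 CPM, as was Il10ra at 33.8 against 78.8 CPM. In suffix 3 the Il18r1 values were 20.5 and 19.1 CPM. Il2rb, the shared interleukin 2 and 15 receptor chain, was 1386 against 910 CPM and was not called.

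Tissue residency and trafficking genes differed in both directions, with 4 of 19 tested higher and 7 lower, beside 5.78% and 5.0% of all. Rgs1, which dampens chemokine receptor signalling, had 1544, 1324 and 2316 CPM against 74.7, 284 and 229 CPM (ratio 7.4, 6.02 to 9.2). Rgs2, Cxcr3 (169 against 48.3 CPM) and Itgb7 (313 against 122 CPM) were also higher. The bone marrow homing receptor Cxcr4 had 5.09 against 91.5 CPM (18-fold lower, 8.94 to 39.1) and Itga4 83.4 against 663 CPM (7.96-fold lower, 6.56 to 9.68). Ccr2, Itga2, Itgam and Klf2 were among the other lower genes, and Klf2 drives several exit receptors. S1pr1, the blood exit receptor, had 0.463 against 5.08 CPM, too little to test.

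**Figure D3:**
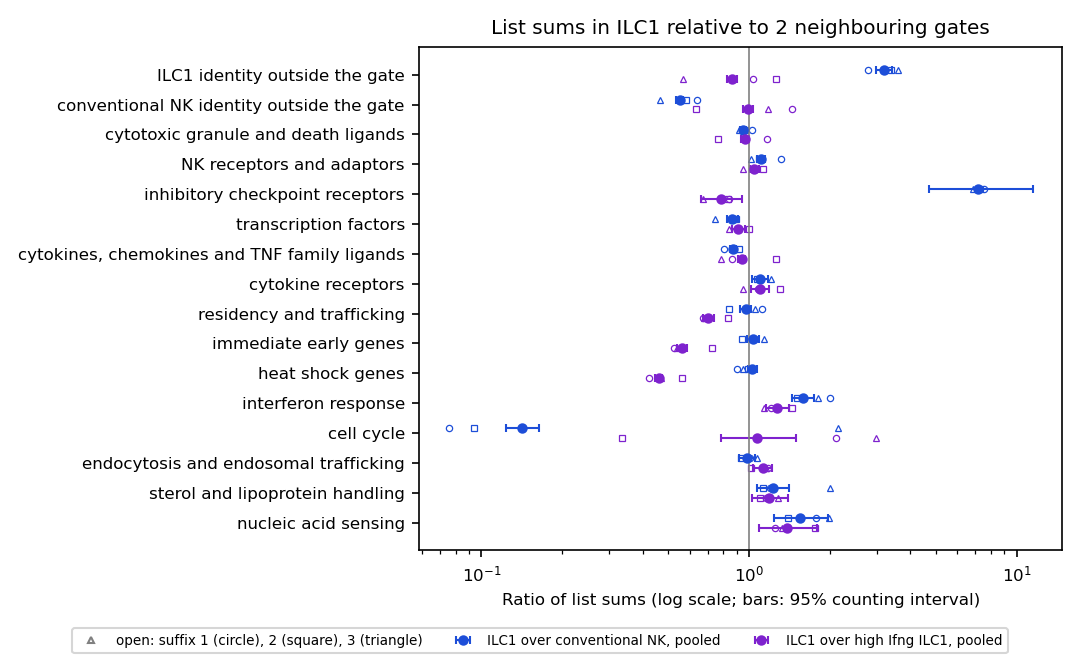
Ratio of summed CPM for 16 gene lists (x axis, log scale) in ILC1 over conventional NK cells (blue) and over high Ifng ILC1 (purple); filled points are pooled sums with 95% counting intervals and open points single libraries. Checkpoint receptors and ILC1 identity genes stand at 7.16 and 3.2 over conventional NK, and heat shock and immediate early genes at 0.459 and 0.561 over high Ifng ILC1.

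Of the lists on nucleic acid responses and uptake, interferon response and nucleic acid sensing genes summed higher in members than in conventional NK, and endocytosis genes did not. Interferon response genes summed to 1871 against 1177 CPM (ratio 1.59, 1.44 to 1.75, with 2.0, 1.5 and 1.80 by suffix). In this list 3 of 10 tested were higher and 0 lower, beside 5.78% and 5.0% of all tested genes. The higher genes were Ifi203 (537 against 221 CPM), Gbp4 (218 against 107 CPM) and Parp14 (118 against 28.0 CPM). The nucleic acid sensing list summed to 332 against 213 CPM (ratio 1.55, 1.24 to 1.97), with members higher in each library. In it, Ddx58, which encodes the RNA sensor RIG-I, was higher at 88.0 against 30.5 CPM. The endosomal receptors Tlr3 and Tlr7 had 1 and 2 UMIs in all members. None of 16 tested endocytosis genes was called, and the list summed to 2439 against 2488 CPM (ratio 0.980, 0.916 to 1.05). Clta, a clathrin light chain, had the ratio 1.79, and Cdc42 and Rac1, regulators of the actin cytoskeleton, 0.924 and 0.865. The lipoprotein receptor gene Lrp1 had 0.926 CPM in members, and Apoe was the sole sterol gene called higher (53.7 against 15.2 CPM). That Apoe call rested on 6 UMIs in conventional NK. In members its 116 UMIs lay in 51 of 323 barcodes, 21 of them in 1 barcode, at 19.1, 59.4 and 68.1 CPM by suffix.

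Cell cycle genes summed to 160 CPM in members and 1128 CPM in conventional NK (7.04-fold lower). Mki67, Top2a and Stmn1 were called lower, at 11.1, 23.6 and 37.5 CPM. The order held in suffixes 1 and 2 but not in suffix 3, where members had 247 and conventional NK 114 CPM. A single suffix 3 member held 52 of the 81 Stmn1 UMIs, 16 of the 24 Mki67 UMIs and 28 of the 51 Top2a UMIs of all members. Cenpf and Ube2c, also cell division genes, were called lower on 22 and 21 conventional NK UMIs that lay in 3 barcodes each. Endothelial markers summed to 140 CPM in members and 353 CPM in conventional NK (49.8, 483 and 172 CPM by suffix), and the single gene of that list called lower was Ptprb, whose 44 UMIs in conventional NK came from 1 barcode. Siglech, a plasmacytoid dendritic cell marker, was lower on 35 UMIs from 2 conventional NK barcodes.

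Only suffix 2 had enough barcodes in both groups for these calls. Without it the pooled sums alone gave 407 genes higher and 371 lower, and 152 and 111 of the genes called with all libraries were among them. Requiring the ratio in all 3 libraries, whatever their size, left 76 higher and 87 lower, a limit set after the data were seen.

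High Ifng ILC1 passed the same gate with 6 to 46 Ifng UMIs (median 10), and members had less of their stress and activation transcripts. Of 3207 genes tested in the pooled sums, 56 (1.75%) were lower in members and 63 (1.96%) higher, with a median ratio of 1.03 over all genes. Of 10 heat shock genes tested, 6 were lower and 0 higher (median ratio 0.441), and of 15 immediate early genes 8 were lower and 0 higher (median ratio 0.470). Heat shock genes summed to 7684, 6416 and 8534 CPM in the members of suffixes 1, 2 and 3 and to 18224, 11410 and 18242 CPM in high Ifng ILC1. Immediate early genes summed to 5020, 4295 and 5131 CPM against 9537, 5899 and 9554 CPM. Members were below high Ifng ILC1 in every library for both sums, and suffix 2 had the smallest gap. The tissue was digested with enzymes before sorting, and the part of handling in these genes was not tested.

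Among the chaperone genes, Hspa1a had 936, 668 and 881 CPM against 2354, 1765 and 2430 CPM (2.75-fold lower, 2.51 to 3.01). Its neighbour Hspa1b was 2.82-fold lower (2.61 to 3.04), and the copies are near-identical, so reads could be split between them. Hsp90aa1 (849 against 2097 CPM), Dnajb1 (408 against 1181 CPM), Hsph1 (123 against 402 CPM) and Hspd1 (162 against 338 CPM) were the other lower chaperones, together with Dnaja4 outside the list (24.5 against 96.2 CPM). Of the immediate early genes, Junb, a subunit of the factor AP-1, had 1012, 577 and 1370 CPM against 2380, 957 and 2605 CPM (2.13-fold lower, 1.94 to 2.33). The nuclear receptor genes Nr4a1, Nr4a2 and Nr4a3, induced by receptor signalling, were 2.77-fold, 2.5-fold and 2.23-fold lower. Zfp36, which destabilises cytokine messages, had 155, 118 and 139 CPM against 799, 159 and 381 CPM, and suffix 2 showed the smallest difference. Egr1, Dusp2 and Klf6 were 4.06-fold, 2.21-fold and 2.46-fold lower.

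On the cytokine and chemokine list 2 of 8 tested genes were lower in members, and on the checkpoint receptor list 1 of 4. None of 12 tested cytotoxic genes was lower, and no gene of these lists was higher. Beside these, 1.75% of all tested genes were lower and 1.96% higher. Ccl4 was lower in members (927 against 2187 CPM), but its high Ifng values were 3772, 945 and 1410 CPM, so suffix 1 carried most of the difference. Rgs1 had 1730 against 3680 CPM and Lilr4b 88.9 against 189 CPM. Cxcl10, an interferon-induced chemokine, had 16.2 against 76.3 CPM, and its high Ifng UMIs lay in 5 of 40 barcodes. Areg, the growth factor amphiregulin, rested on 19 UMIs in 1 high Ifng barcode of suffix 3. Pim3, Crem, Sfi1 and BC035044 were the other genes of the 10 lowest ratios. Gzmb (3317 against 3601 CPM), Gzma (6602 against 6790 CPM), Xcl1 (2966 against 3959 CPM) and Tbx21 (110 against 149 CPM) were not called. The 18 ILC1 identity genes summed to 7162 against 8323 CPM, with ratios of 1.04, 1.26 and 0.567 in suffixes 1, 2 and 3, hence not the same order in each library. Socs2, a feedback inhibitor, was the single identity gene called higher in members (64.8 against 29.9 CPM).

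Genes called higher in members than in high Ifng ILC1 were mostly of low level. Gm26870 had the largest ratio (78.3 against 9.96 CPM), and 58 of its 169 UMIs lay in 1 suffix 3 member. Tspan32, a tetraspanin, had 44.5, 69.3 and 65.5 CPM against 17.2, 11.4 and 10.3 CPM (ratio 4.71, 1.80 to 17.5). Members were higher in each library, beside 15, 10 and 15 high Ifng barcodes. Eif1a, Trim33, Srrt, Otud5, Dnm2, Uvrag, Pcm1 and Hnrnph2 completed the 10 highest. Leaving out any 1 library raised the counts to between 108 and 121 higher and between 90 and 95 lower, of which 35 to 42 and 36 to 42 were among the genes called with all libraries. Requiring the ratio in all 3 libraries left 5 higher and 9 lower. With so few barcodes and no library check, 2.19% of unchanged genes were called in either direction on simulated counts. The data gave 1.96% higher and 1.75% lower, so single calls in this comparison are uncertain. The simulated counts held counting error only, without spread between cells.

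Within the members, the pooled heat shock and immediate early sums rose with the number of Ifng UMIs. Ifng is a gate gene, so these classes are a description. Heat shock genes summed to 6480 CPM in the 194 members with no Ifng UMI, 6630 CPM in the 94 with 1 or 2, and 14280 CPM in the 35 with 3 to 5, beside 16244 CPM in high Ifng ILC1. The median barcodes had 4526, 5272, 8819 and 14986 CPM in the same order. By medians, members with 3 to 5 UMIs thus lay further below high Ifng ILC1 than by pooled sums. Immediate early genes stood at 4025, 4880, 8016 and 8482 CPM in the same order. With no Ifng UMI they were 3401, 4126 and 4227 CPM in suffixes 1, 2 and 3. With 1 or 2 UMIs they were 6843, 4070 and 4525 CPM, and with 3 to 5 they were 6371, 5866 and 13063 CPM. The libraries thus did not share 1 step, as suffix 1 rose at 1 or 2 UMIs. Suffix 3 raised the pooled value at 3 to 5 UMIs. In members with 3 to 5 UMIs the heat shock sums were 11469, 9734 and 24088 CPM in suffixes 1, 2 and 3, from 11, 14 and 10 barcodes, so suffix 3 raised the pooled value. All 3 of these sums were above those of the members with no Ifng UMI (5969, 5988 and 7409 CPM). The pooled cytotoxic sums showed no such rise, at 15404, 15052, 12746 and 15508 CPM. The median depth was 6490, 6636.5, 7000.0 and 7007 UMIs in the 4 classes, and its part in the Ifng class was not tested.

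**Figure D4:**
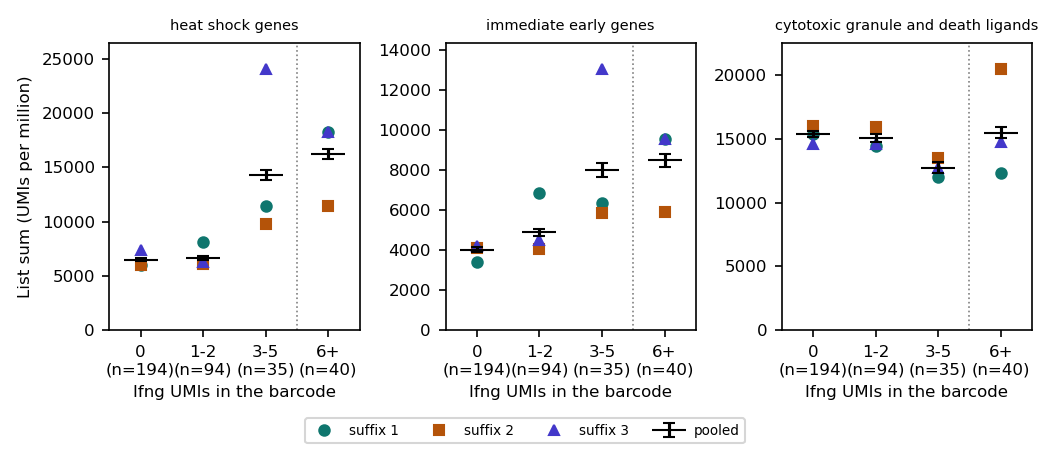
Summed CPM of heat shock genes, immediate early genes and cytotoxic genes (y axes) by the number of Ifng UMIs in a barcode (x axis); coloured symbols are libraries and black bars pooled sums with 95% counting intervals, and the dotted line marks the gate limit. Pooled heat shock sums go from 6480 CPM at 0 UMIs to 14280 CPM at 3 to 5 UMIs, while pooled cytotoxic sums stay between 12746 and 15508 CPM.

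T cells were the other lymphocytes set beside the members. Of 3373 genes tested, 54 (1.60%) were called higher in ILC1 and 95 (2.82%) lower. With TMM scaling all ratios would move up by 0.11 on the log2 scale, and the calls would be 66 higher and 83 lower. The highest ratios belonged to Klrb1a (203 against 3.33 CPM, from 2 UMIs in T cells, ratio 61.1, 16.8 to 506) and Klrb1f (222 against 13.3 CPM), both lectin-like receptors of the NK1.1 family. Nrgn and Timp2 were also among the 5 highest, at 117 and 60.7 CPM. The signalling adaptors Tyrobp (2188 against 471 CPM) and Fcer1g (2164 against 873 CPM) and the Fc receptor Fcgr3 (62.5 against 11.6 CPM) were also higher, as were Xcl1, Ccl3, Lag3 and Rgs2. The lowest ratios were those of Cd8a (2 UMIs in all members), S1pr1 (1 UMI against 69.9 CPM), Trdc, Trgv2 and Trac. Members and T cells were chosen by opposite limits on CD3, Ncr1 and Klrb1c. Neither direction is therefore independent of the rule. Endothelial markers reached 775 CPM in the T cell sum against 140 CPM in members, and 4 barcodes of the T cell gate were mixed by the rule above. Without mixed barcodes the ratio of these markers was 1.46 and the calls were 56 higher and 74 lower. Leaving out suffix 3 gave 120 higher and 152 lower, and leaving out suffix 2 gave 161 lower.

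Members varied widely among themselves in granule genes. Per barcode, Gzma ranged from 0 to 29508 CPM with a median of 4399 CPM, and 67 of 323 had none. Gzmc, a gate gene, was at 0 in 163 and reached 31515 CPM in 1. Gzmb had a median of 2584 CPM with 23 at 0, and Klra5 was at 0 in 210. Ccl5, in contrast, was missing from only 4 barcodes, with a median of 11925 CPM and quartiles of 8741 and 16040 CPM. After thinning each barcode to 2000 UMIs, which left out 5 shallower members, the variance over the mean across 3025 genes had a median of 1.05. It was 16.4 for Gzmc, 15.5 for Gzma, 9.73 for Rgs1, 8.46 for Hsp90aa1, 6.03 for Gzmb and 5.40 for Xcl1. The top value, 38.6 for the chemokine gene Ccl1, came mainly from 1 suffix 1 barcode with 196 of the 238 Ccl1 UMIs.

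**Figure D5:**
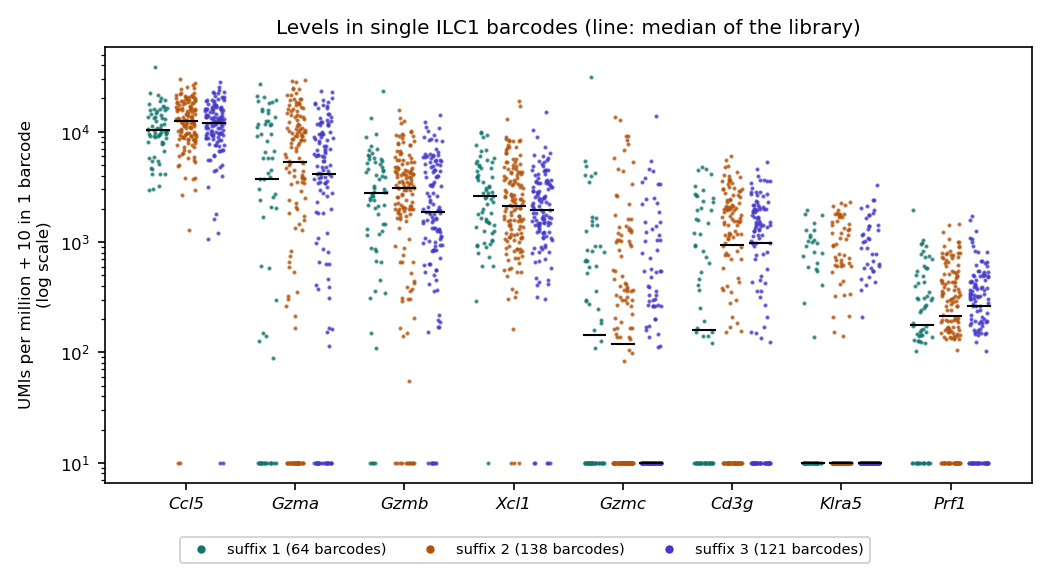
Level of 8 genes in each of the 323 ILC1 barcodes (y axis, CPM plus 10, log scale), split by library with the library's median as a line. Gzma, Gzmc, Klra5 and Cd3g include many barcodes at 0 in each library, whereas Ccl5 is missing from only 4 barcodes.

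Some effector genes, but not all, were higher in members with more Gzmc. Since Gzmc is a gate gene, its classes are a description. Members without it entered through Cxcr6, Itga1 or Ltb, while 10 or more Gzmc UMIs met that limit alone. The part of this in the values below was not tested. In the 163 members without Gzmc, the 118 with 1 to 9 UMIs and the 42 with 10 or more, Gzmb stood at 2486, 3910 and 4611 CPM, Xcl1 at 2331, 3267 and 4372 CPM and Prf1 at 256, 311 and 430 CPM. For Prf1 this order held in each library, and for Xcl1 in suffixes 1 and 3. For Gzmb it held in suffix 2 alone, since in suffixes 1 and 3 the class with 1 to 9 UMIs was highest (4598 and 4488 CPM). Gzma stood at 5529, 7778 and 7144 CPM, with the middle class highest in suffixes 1 and 3 and the last class highest in suffix 2. Tnfsf10 had 247, 217 and 242 CPM and Ccl5 12387, 12413 and 12615 CPM, so neither followed the Gzmc classes. Median depth was 6438, 6626 and 7196 UMIs, and its part in the Gzmc classes was not tested. Gzmb (chromosome 14, 56258838 to 56262260, minus strand) and Gzmc (56231441 to 56234656, minus strand) are related genes of one cluster.

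Il7r marks a known subset of liver ILC1. In thinned barcodes 44 of 318 (13.8%, 10.2 to 18.1%) had an Il7r UMI, and the share was 26.3% without thinning and 9.60% at 1000 UMIs, so it moved with depth. The 44 barcodes (9, 18 and 17 by suffix) had Gzma at 2818 CPM against 7622 CPM in the 274 others (2.70-fold lower, 2.38 to 3.09), with ratios of 0.493, 0.188 and 0.570 in suffixes 1, 2 and 3. Klra5 had 56.8 against 407 CPM (7.16-fold lower, 3.02 to 22.3), and the adaptor Tyrobp 1534 against 2367 CPM. Gzmb was 1989 against 3520 CPM, but in suffix 1 the ratio was 1.00. On the other side, Il18rap had 227 against 49.3 CPM (ratio 4.61, 2.45 to 8.54), Ikzf2 216 against 87.6 CPM and Maf, a factor of lymphocyte differentiation, 500 against 237 CPM. Tcf7, a factor of lymphoid progenitors, had 56.8 against 9.12 CPM from few UMIs (ratio 6.23, 1.43 to 27.1). A barcode without an Il7r UMI may still express the gene, so the split is a description.

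Between the 3 libraries the members were alike for most genes. Of 3434 genes, 135 (3.93%) differed at least 2-fold between the highest and the lowest library, with the highest value in suffix 1 for 53, suffix 2 for 18 and suffix 3 for 64. Some of the widest ranges came from single barcodes. Ccl1 stood at 417, 6.60 and 44.9 CPM through the barcode named above. A suffix 1 member held all 29 Klk1 UMIs and the most UMIs of Siglech, Plac8, H2-Eb1 and Cd74, which mark plasmacytoid dendritic and antigen-presenting cells. In suffix 3, 1 member held 70 of 166 Selenop and 29 of 49 Igfbp7 UMIs, and Selenop stood at 27.5, 20.9 and 172 CPM. Other genes were spread over more barcodes. Nr4a1 had 55.1, 14.3 and 62.9 CPM, Nr4a2 76.2, 25.3 and 89.9 CPM and Hsph1 116, 63.8 and 196 CPM, so suffix 2 was lowest for each. Xaf1, an interferon-induced gene, had 6.35, 44.0 and 52.6 CPM. Which treatment these libraries received cannot be told from the files used here.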

How the data were processed

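The deposited data are raw UMI counts of 31053 genes in 4638 barcodes from droplet 3′ libraries (10x Genomics), made with Cell Ranger 3.1.0 per the file headers against mm10. The submitters' processing notes also name STAR, Seurat and edgeR, without versions. Counts depend on the cell calling and annotation chosen there, which the sources used here do not describe in full. Barcodes with at least 200 genes and at most 20% mitochondrial UMIs were kept, which removed 1408. Of these, 2 met the remaining limits of the ILC1 gate. Counts were summed per gate and library and divided by the sum (CPM). Intervals of ratios are exact given the gene's total count, and those of shares are Clopper-Pearson intervals. Group sums of 0 were set to 3 counts. All columns of the matrix were used, and no sequence index file was.

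Members, gates and the 24 gene lists were chosen with earlier results of these data known. Named genes were the 10 highest and 10 lowest ratios called per comparison (5 and 5 for T cells), up to 4 list members with the highest CPM, list members called against conventional NK, the gate genes and the genes taking most UMIs (Malat1, Gm42418, Tmsb4x, Ccl5, Actb, Tpt1, Gzma, Eef1a1, Tmsb10 and Fau). Genes named for their spread between barcodes or libraries or in the Il7r and Gzmc splits were chosen after their values were seen. The call was planned over 3 libraries and used those with 20 barcodes in both gates. The gate genes number 13. Of the list genes, 1 (Cgas) had no row under its symbol.

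The calls were tested on simulated counts, where unchanged genes were called most often against high Ifng ILC1, whose calls had no library check. Alternatives covered the filter, the gates, doublets, libraries, thinning, denominator, weighting, TMM, minimum level and fold. Tools were Python 3.11.15, numpy 2.4.6, scipy 1.17.1 and scanpy 1.11.5. Some genes that met the naming rule are not reported here.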

Additional observations from a re-analysis of the deposited data

How the results depend on the processing

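Counting error is wide for conventional NK and high Ifng ILC1, with 47 and 40 barcodes against 323 members. No paired analysis was possible because each treatment had 1 library and the suffixes carry no replicate numbers. Leaving out 1 library gave 185 to 259 members, and counts of genes higher and lower of 199 to 407 and 193 to 371 against conventional NK, 108 to 121 and 90 to 95 against high Ifng ILC1, and 58 to 120 and 115 to 161 against T cells. The largest counts against conventional NK, 407 and 371, came without suffix 2, which leaves no library to check the pooled sums. Against T cells, 120 higher came without suffix 3 and 161 lower without suffix 2. In the order conventional NK higher and lower, high Ifng higher and lower, T cells higher and lower, a minimum of 10 CPM gave 607, 805, 663, 318, 143 and 389 genes, and a fold of 1.5 gave 401, 390, 274, 200, 161 and 190.0. The rule of all 3 libraries, chosen after seeing the data, gave 76, 87, 5, 9, 29 and 53. These follow from looser or stricter limits. Thinning to 2000 UMIs gave 361 lower against conventional NK (43.5% of calls higher, beside 53.6%), 350.0 higher and 330.0 lower against high Ifng ILC1, and 147 lower against T cells. A denominator without mitochondrial and ribosomal protein genes gave 123 higher against high Ifng ILC1 (61.5% of calls higher, beside 52.9%). TMM moved the share of higher calls to 62.0% against conventional NK and from 36.2% to 44.3% against T cells. The cause was not tested. The share of members with an Il7r UMI was 9.598% at 1000 UMIs and 26.32% unthinned. List ratios that changed sides of 1 were as follows. For cytotoxic genes the ratio to conventional NK was 1.011 with TMM, and that to high Ifng ILC1 was 1.03 with a gate of 6 UMIs and 0.8655 to 1.072 without 1 library. Without 1 library, the ratio to high Ifng ILC1 was 0.7509 to 1.11 for identity genes and 0.8308 to 1.028 for cytokines, highest without suffix 3. Transcription factors reached 1.022 over T cells with TMM. Endothelial markers reached 1.104 (doublets left out) and 0.1767 to 1.984 (without 1 library, highest without suffix 2) over conventional NK, and 1.687 (doublets left out) and 1.462 (mixed barcodes left out) over T cells. Kupffer markers had 0.7292 to 3.062 (without 1 library, lowest without suffix 2) and 0.5492 (mixed barcodes left out) over T cells. Plasmacytoid markers had 1.112 over conventional NK with the stricter filter. Over T cells they had 0.625 at an Ifng maximum of 2, 0.6131 without doublets, 0.9913 to 1.766 without 1 library (lowest without suffix 1), 0.6295 without mixed barcodes, 0.668 thinned and 0.9916 as a mean per barcode. The 600 ratios computed for single genes covered only the 10 highest and 10 lowest called per comparison (5 and 5 for T cells). None of them changed sides, but these genes were picked for extreme ratios, so this says little. The other genes named above were not in this check.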
